A study of Mus musculus with 884 samples.

Results

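Replication timing was described at 8 genes that mark the formative and primed epiblast: Otx2, Pou3f1, Dnmt3a, Dnmt3b, Nodal, Fgf8, T and Eomes. The genes were placed by their mm9 position, given to the nearest 10 kb, on 80 kb bins for which each cell had been called replicated or not. With 400 kb on either side they covered 92 of the 30890 autosomal bins, and 12 of the 92 touch a gene. The rule that names them uses no replication value.

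The calls came from single-cell Repli-seq: the genome of a cell sorted by DNA content is amplified and sequenced, and stretches already copied stand out by their higher copy number. The 884 cells comprised CBMS1 female embryonic stem cells (strain label CBA/MsM) in 2i/LIF (d0), the same line along a differentiation, and female epiblast stem cells (EpiSC, strain label C57BL6) in Activin/FGF. In the differentiation d2 is the epiblast-like (EpiLC) stage, and d3 to d7 are floating aggregates in GK15 medium without added factors that head to neurectoderm. Of these cells 805 were in S phase, between 50 (d3) and 64 (d6) on each of d3 to d6, 74 for EpiSC and more on d0, d2 and d7, and 72 cells in G1 served as controls. EpiSC differ from the CBMS1 groups in strain and medium as well as in state, so these cannot be told apart.

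The epiblast of the mouse embryo passes from a naive state, held in culture by 2i/LIF, through a formative state modelled by EpiLC to a primed state modelled by EpiSC. Otx2 and Pou3f1 encode transcription factors of that passage, Dnmt3a and Dnmt3b encode the enzymes that set DNA methylation anew, and Nodal and Fgf8 encode signalling ligands. T (Brachyury) and Eomes encode T-box transcription factors of the primitive streak, where mesoderm and endoderm arise. Genes in active chromatin tend to be copied early in S phase. No RNA was measured in these cells, so nothing below concerns expression.

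Progress of a cell through S phase was read from its replication score, the percentage of called autosomal bins that it had replicated. Groups were compared in window cells, those with scores of 40 to 70%. There were 293: 59 d0 cells, 35 d2, 13 d3, 18 d4, 20 d5 and 21 d6 cells, 26 EpiSC, and the rest d7 cells. Each had at least 26813 bins called. The labels name no separate cultures, so each group counts as 1 sample. No test was run, and each interval given is an exact (Clopper-Pearson) 95% interval for the counting error over cells alone. Of the d0 window cells 50 had been deposited in a previous series and 9 in the present one; for d7 these numbers were 35 and 66, and every other group was of the present series. The calls of 7 window cells followed the mean profile of their group poorly (area under the curve below 0.8), 3 of them among the 9 present-series d0 cells, 1 at d4 and 3 at d7. The 3 d0 cells were all those corrected with 1 of the 4 G1 controls used at d0. Their median area was 0.418 and that of the d4 cell 0.259, so replicated calls tended to fall in bins with lower shares in the group. These 3 cells gave every unreplicated d0 window call at Dnmt3a, Dnmt3b, Pou3f1, Nodal and Fgf8. The d4 cell had 0 of the 8 genes replicated.

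In G1 cells, which have not begun to replicate, the genes were seldom called replicated. Otx2 was so called in 0 of 72 cells, for which the limit set by 3 counts is a share of 4.17%, and Dnmt3a in 6 of 72 (8.33%, interval 3.12 to 17.3%), the most of the 8. Eomes was called in 1 of 72 cells, T in 1 of 71, Fgf8 in 2 of 71, Dnmt3b and Nodal in 4 of 72 each, and Pou3f1 in 4 of 70. In S-phase cells with scores of 90% or more, 1 call at Fgf8 of 75 was not replicated, and the other 7 genes were replicated in every cell called.

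All 8 genes lay in early-replicating DNA in every group. Of the 12 gene bins 11 were replicated in at least 80% of the window cells of all 8 groups, as were 74 of the 92 bins, against 25.8% of all autosomal bins tested. The exception among gene bins was Pou3f1, which missed at d3 with 10 of 13 cells (76.9%, interval 46.2 to 95%). The 80% rule was met by every bin around Dnmt3a (13), Dnmt3b (11), Nodal (12) and Fgf8 (11). It was met by 10 of 11 around Pou3f1 and 9 of 12 around Otx2, but by only 4 of 11 around T and 4 of 11 around Eomes. Of 282 window cells with a call at all 8 genes, 239 (84.8%) had replicated all 8. Another 33 missed exactly 1 gene, which was Eomes in 14 and T in 10. The 4 window cells with 4 or fewer genes replicated were all among the 7 that followed their group's profile poorly.

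Pooled over the groups, the genes fell into an earlier and a later set within early S phase, a split that was not present in every group. In S-phase cells of all groups with scores of 5 to 20%, Fgf8 was replicated in 50 of 63 cells (79.4%, interval 67.3 to 88.5%), Pou3f1 in 49 of 64 (76.6%), Dnmt3b in 46 of 64 (71.9%), Dnmt3a in 45 of 64 (70.3%) and Nodal in 39 of 64 (60.9%, 47.9 to 72.9%). In the same cells Otx2 was replicated in 15 of 64 (23.4%, 13.8 to 35.7%), Eomes in 14 of 64 (21.9%) and T in 10 of 64 (15.6%). The intervals of the sets do not overlap, whereas neighbours within each set do not differ beyond counting error. At scores of 20 to 30% the earlier 5 genes were replicated in 90.2% of cells or more, but Otx2 in 33.9%, T in 41.9% and Eomes in 43.5%. The lowest score of any cell with all 8 genes replicated was 22.8%.

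**Figure D1:**
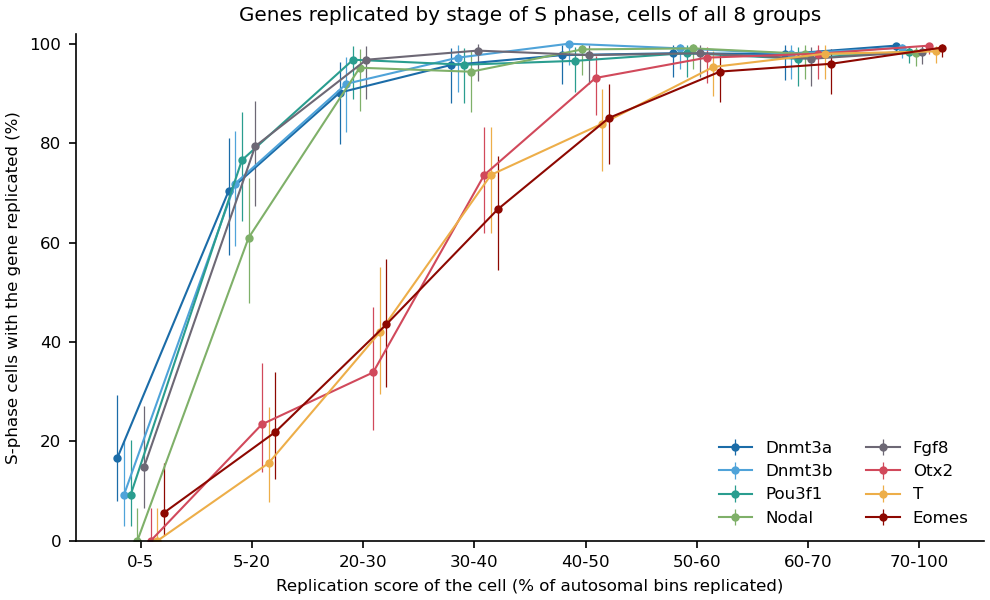
Share of S-phase cells with each gene replicated (percent, with exact 95% intervals) against the replication score of the cell, in 8 classes of score over all groups; points are shifted sideways for legibility. Dnmt3a, Dnmt3b, Pou3f1, Nodal and Fgf8 were replicated in 60.9 to 79.4% of cells at scores of 5 to 20%, while Otx2, T and Eomes stood at 15.6 to 23.4%.

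The order within cells, which needs no score, gave the same sets when pooled over the groups. It uses the same calls of the same cells, so it describes the split in another way and is no separate support for it. For each of 28 pairs of genes, cells in which exactly 1 of the pair was replicated were counted by which gene it was. Over all pairs Fgf8 was the replicated gene in 82.1% of such cases, Dnmt3b in 79.4%, Dnmt3a in 78%, Pou3f1 in 77.2% and Nodal in 67.4%. Otx2 was ahead in 22.8%, Eomes in 19.9% and T in 17.1%. The sets were also separate within d0, d2, d6 and d7, but not within the other groups. At d3 Otx2 was ahead in 84.9% of its cases, against 18.8% for Pou3f1 and 33.9% for Nodal. At d5 Otx2 was ahead in 77.8%, against 46.4% for Fgf8 and 47.1% for Dnmt3b. At d4 Dnmt3a was ahead in 31.7% and T in 32.6%, and in EpiSC Nodal and Eomes were both ahead in 34.2% and Otx2 in 33.3%. A cell enters several pairs, so these percentages are descriptions.

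Otx2, the homeobox factor that acts as the epiblast leaves the naive state, had the widest range between groups of the 8 genes in early S phase. In cells with scores of 20 to 40% 11 of 42 d0 cells had replicated it (26.2%, interval 13.9 to 42%), as had 16 of 21 d2 cells (76.2%, 52.8 to 91.8%), 7 of 7 d3 cells (59 to 100%), 6 of 8 d4 cells and 11 of 12 d5 cells (91.7%, 61.5 to 99.8%). It was replicated in 5 of 10 d6 cells, 10 of 23 d7 cells (43.5%, 23.2 to 65.5%) and 8 of 11 EpiSC (72.7%, 39 to 94%). The values at d2 to d5 and in EpiSC were therefore high, and the low end was d0 with d7 and d6 nearest to it. The intervals of d2, d3 and d5 do not overlap that of d0; those of d4, d6, d7 and EpiSC do. In d0 cells matched in score to the d2 cells, Otx2 was replicated in 5 of 21 (23.8%). In those matched to the d7 cells it was replicated in 9 of 23 (39.1%), close to d7 itself. In those matched to EpiSC it was replicated in 4 of 11 (36.4%).

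The origin of the cells moved with the day in this comparison. Of the 42 d0 cells 37 were of the previous series, 9 of them (24.3%) with Otx2 replicated, against 2 of 5 (40%) in the present series. Within the present series Otx2 was replicated in 7 of 20 d7 cells (35%, interval 15.4 to 59.2%) against the 16 of 21 d2 cells, and d2 held no cell of the previous series.

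**Figure D2:**
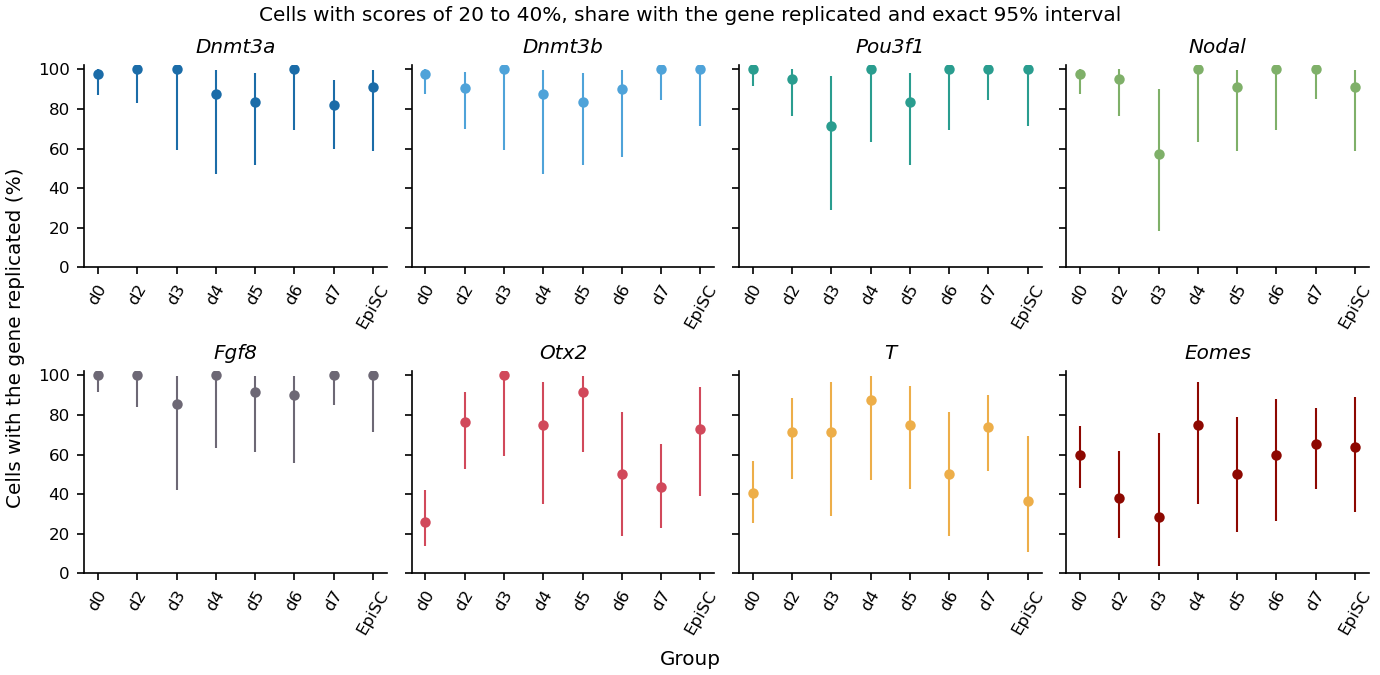
Share of cells with each gene replicated (percent, points) in the S-phase cells of each group with scores of 20 to 40%, with exact 95% intervals (bars). Otx2 stands at 26.2% at d0 and 76.2% at d2, whereas the earlier 5 genes lie above 80% in all groups except d3.

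The score at which Otx2 passed 50% of cells, fitted per group over S-phase cells with scores of 5 to 95%, was 35.5% at d0. It was 21% at the EpiLC stage (d2), 7.0% on d3, 19.5% on d4 and 10.5% on d5. It was 30% at d6, 32% at d7 and 21.5% in EpiSC, while the median over all autosomal bins was 49.5 to 50.5% in every group. The days d3 to d6 rest on 38 to 52 cells each, but only 7 d3, 11 d4, 8 d5 and 13 d6 cells had scores of 5 to 30%. Early midpoints depend on those few cells. The lowest score from 5% up was 6.17% at d3 and 7.99% at d5. The d3 midpoint thus lies at the low edge of the scores, and it and the d5 midpoint are loosely placed. At d2 and d3 the midpoints were lowest at the gene. At d3 the midpoint was 7.0% in both Otx2 bins but 53% in the bin 400 kb to the left (lower coordinates) and 34% in the bin 400 kb to the right. At d2 the corresponding values were 11 and 21% in the gene bins, 49% on the left and 31.5% on the right. At d0 they spanned less, between 33 and 41.5%. In EpiSC they were 19.5 to 24.5% from the gene to the right end of the stretch and 27.5 to 38% on the left. Taken over the gene with its flanks, the midpoint of Otx2 was 34% at d3 and 29% at d2.

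In window cells these differences were nearly gone at Otx2 itself (chromosome 14, 49200001 to 49360000), since almost every cell had replicated it by then. It was replicated in 55 of 59 cells at d0 (93.2%), 35 of 35 d2 cells, 13 of 13 d3 cells, 17 of 18 d4 cells, 20 of 20 d5 cells, 20 of 21 d6 cells, 96 d7 cells (95%, all but 5) and 26 of 26 EpiSC. The 3 bins on its far left were lower at d2 and d3. The outermost was replicated in 56 of 59 cells at d0, 21 of 35 d2 cells, 7 of 13 d3 cells, 16 of 18 d4 cells and 22 of 26 EpiSC. At d2, 15 of 35 cells had both replicated and unreplicated calls in the Otx2 stretch, in all 15 with a single change of state along it, and in 14 the left side was the less replicated. RefSeq (GRCm38.p6) gives Tmem260 and Exoc5 as the neighbours of Otx2.

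Pou3f1, a POU-domain factor of epiblast and neural cells, replicated very early (chromosome 4, 124320001 to 124400000). In window cells it was replicated in 56 of 59 d0 cells (94.9%), 35 of 35 d2 cells, 10 of 13 d3 cells, 17 of 18 d4 cells, 20 of 20 d5 cells, 21 of 21 d6 cells, 99 of 100 d7 cells and 26 of 26 EpiSC. Only d3 stood apart, and its interval reaches 95%. At d0 no cell had any other of the 8 genes replicated without Pou3f1, and the same held for Fgf8 (0 of 99 cases). At d3, by contrast, Otx2 was replicated without Pou3f1 in 11 of 12 cells that differed, and Dnmt3a and Dnmt3b in 10 of 10 each. The d3 cells with scores of 5 to 40% number 12, and 6 of them had replicated Pou3f1.

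Dnmt3a and Dnmt3b, the de novo DNA methyltransferases, were replicated in nearly every window cell. Dnmt3a (chromosome 12, 3760001 to 4000000) was replicated in 55 of 58 cells at d0, 34 of 34 d2 cells, 13 of 13 d3 cells, 16 of 18 d4 cells, 20 of 20 d5 cells, 21 of 21 d6 cells, 96 of 97 d7 cells and 26 of 26 EpiSC. Dnmt3b (chromosome 2, 153440001 to 153520000) was replicated in 56 of 57, 35 of 35, 13 of 13, 17 of 18, 20 of 20, 21 of 21 and 26 of 26 cells of d0 to d6 and EpiSC, and in all but 1 d7 cell. Both were therefore near the ceiling in all groups, with d4 the lowest. The off-profile d4 cell was 1 of the unreplicated d4 cells at Dnmt3a and the only 1 at Dnmt3b. Their order within cells was not the same in all groups. At d2 Dnmt3a was the replicated gene in 15 of 16 cells that differed, at d7 in 1 of 7 and in EpiSC in 0 of 5. Over all groups the order was even, 24 of 47.

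The ligand genes Nodal and Fgf8 were also near the ceiling. Nodal, a TGF-beta family ligand of the epiblast (chromosome 10, 60800001 to 60960000), was replicated in 56 of 58 window cells at d0, 35 of 35 d2 cells, 13 of 13 d3 cells, 16 of 18 d4 cells, 20 of 20 d5 cells, 21 of 21 d6 cells, every d7 cell and 26 of 26 EpiSC. Fgf8, a fibroblast growth factor of the primitive streak (chromosome 19, 45760001 to 45840000), was replicated in 56 of 58, 32 of 33, 13 of 13, 17 of 18, 19 of 20, 21 of 21 and 26 of 26 cells of d0 to d6 and EpiSC, and in all but 2 d7 cells. No group separated from d0 in window cells. Within cells Fgf8 was ahead of Nodal in 36 of 50 cells that differed. This was concentrated at d2 (13 of 15), d3 (7 of 8) and EpiSC (9 of 11), while at d7 Nodal was ahead in 4 of 6. In EpiSC Nodal lagged most other genes of its set: Dnmt3b was ahead of it in 12 of 12 cells, Dnmt3a in 8 of 9 and Pou3f1 in 7 of 7. Cells with scores of 5 to 40% had Nodal replicated in 47 of 48 d0 cells (97.9%), 27 of 38 d2 cells (71.1%), 6 of 12 d3 cells, 30 of 33 d7 cells (90.9%) and 13 of 19 EpiSC (68.4%). Only 6 of those 48 d0 cells had scores under 20%, against 17 of 38 d2 cells, so these shares differ in the stage of the cells as well.

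T (chromosome 17, 8560001 to 8640000) was lowest at d0. It was replicated in 48 of 59 window cells at d0 (81.4%, interval 69.1 to 90.3%), 35 of 35 d2 cells (90 to 100%), 12 of 13 d3 cells, 16 of 18 d4 cells, 20 of 20 d5 cells, 20 of 21 d6 cells, 97 d7 cells (96%, 90.2 to 98.9%) and 24 of 26 EpiSC (92.3%). No group was below d0, but the intervals of d0 and d2 overlap at their ends. From 81.4% at d0 a rise of 30 percentage points was not possible. Among d0 cells T was replicated in 43 of 50 of the previous series (86%) and 5 of 9 of the present one (55.6%). The 3 present-series cells off the mean profile were 0 of 3. Without off-profile cells the difference from d0 to d2 was 14.3 points in place of 18.6, and with present-series cells alone it was 44.4.

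In cells with scores of 20 to 40% 17 of 42 d0 cells had replicated T (40.5%, interval 25.6 to 56.7%), as had 15 of 21 d2 cells (71.4%, 47.8 to 88.7%), 5 of 7 d3 cells, 7 of 8 d4 cells, 9 of 12 d5 cells, 5 of 10 d6 cells, 17 of 23 d7 cells (73.9%, 51.6 to 89.8%) and 4 of 11 EpiSC (36.4%). EpiSC were thus as low as d0 at this stage, and the intervals of d0, d2 and d7 overlap. The d0 cells matched in score to d2 had T replicated in 8 of 21 (38.1%). The fitted midpoint of T was highest for EpiSC (37.5%) and d0 (34.5%). Below them came d3 with 31.5%, d7 with 30.5% and d6 with 30%, and the earliest were d5 with 20%, d2 with 19.5% and d4 with 12.5%.

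The right flank of T, the 5 bins at higher coordinates, differed more than the gene. Of the window cells at d0, 36 of 59 had replicated it (61%, interval 47.4 to 73.5%), as had 29 of 35 d2 cells (82.9%, 66.4 to 93.4%), 8 of 13 d3 cells, 12 of 18 d4 cells, 19 of 20 d5 cells (95%, 75.1 to 99.9%), 16 of 21 d6 cells, 96 d7 cells (95%, 88.8 to 98.4%) and 21 of 26 EpiSC (80.8%). The intervals of d5 and d7 do not overlap that of d0. The difference from d0 to d7 was 34 points, 35.6 with cells matched in score and 25.8 with present-series cells alone. With scores of 20 to 40% this flank was replicated in 2 of 42 cells at d0 (4.76%) and 13 of 21 d2 cells (61.9%, 38.4 to 81.9%), but in 0 of 7 d3 cells and 0 of 8 d4 cells. The groups d5, d6, d7 and EpiSC are not given for the flank at these scores, so these values do not single out d2. The left flank of T was replicated in 44 of 59 window cells at d0 (74.6%, 61.6 to 85%), 34 of 35 d2 cells (97.1%, 85.1 to 99.9%), 95 d7 cells (94.1%) and 25 of 26 EpiSC (96.2%), so d0 was again lowest. RefSeq gives T2 and Pde10a as the neighbours of T.

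Eomes (chromosome 9, 118320001 to 118400000) had its lowest window share at d2. It was replicated in 55 of 59 window cells at d0 (93.2%, interval 83.5 to 98.1%), 28 of 35 d2 cells (80%, 63.1 to 91.6%), 11 of 13 d3 cells (84.6%), 17 of 18 d4 cells, 19 of 20 d5 cells, 21 of 21 d6 cells, 93 d7 cells (92.1%) and 26 of 26 EpiSC. The lowest groups were d2 and d3, whose intervals overlap that of d0. The difference from d0 to d2 was -13.2 points, but -2.48 with scores of 45 to 65%. With the 9 present-series d0 cells its direction turned, to 13.3. Of those 9 cells 6 had replicated Eomes, and the 3 off-profile cells among them were 0 of 3. Without off-profile cells the difference was -18.2 points. With scores of 20 to 40% Eomes was replicated in 25 of 42 cells at d0 (59.5%, 43.3 to 74.4%), 8 of 21 d2 cells (38.1%, 18.1 to 61.6%), 2 of 7 d3 cells, 6 of 8 d4 cells, 6 of 12 d5 cells, 6 of 10 d6 cells, 15 of 23 d7 cells (65.2%) and 7 of 11 EpiSC (63.6%). Again d2 and d3 were lowest and overlapped d0. The d0 cells matched in score to d2 stood at 14 of 21 (66.7%). The fitted midpoint of Eomes was latest for d3 (39%), d2 (36.5%) and d5 (32.5%). It was 25% for d7, 24.5% for d6, 22.5% for d0, 20% for EpiSC and 11.5% for d4.

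In window cells the left flank of Eomes showed the largest difference from d0 of any gene or flank examined. It was replicated in 54 of 59 window cells at d0 (91.5%, interval 81.3 to 97.2%), 12 of 35 d2 cells (34.3%, 19.1 to 52.2%) and 5 of 13 d3 cells (38.5%, 13.9 to 68.4%). It was replicated again in 15 of 18 d4 cells (83.3%), 16 of 20 d5 cells, 14 of 21 d6 cells (66.7%), 81 d7 cells (80.2%, 71.1 to 87.5%) and 25 of 26 EpiSC (96.2%). The intervals of d2 and d3 do not overlap that of d0, while the EpiSC interval (80.4 to 99.9%) overlaps that of d0 and not those of d2 and d3. The difference from d0 to d2 was -57.2 points, -57.1 with d0 cells matched in score, -58.6 without off-profile cells and -43.5 against the 9 present-series d0 cells. It held for both G1 controls used at d2, with 5 of 12 and 7 of 23 cells replicated.

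The lower share at d2 formed a slope across the Eomes stretch. From 400 kb left of the gene to the gene, d2 bins were replicated in 6, 6, 12, 16, 22 and 28 of 35 cells. The same bins at d0 were replicated in 33, 47, 54, 54, 54 and 55 of 59 cells. Each bin was thus lower at d2, most so 320 kb from the gene and by less from there to the gene. At 320 kb on the left the fitted midpoint was 67.5% at d2 and 60% at d3, against 46% both at d0 and at d7 and 24% in EpiSC. At d2, 27 of 35 window cells had calls of both states in this stretch. A single change of state was seen in 23 and the left side was less replicated in 24, so the boundary ran through the stretch within cells. Such a boundary was not particular to d2. Calls of both states were also found in 27 of 59 d0 cells, 11 of 13 d3 cells and 15 of 18 d4 cells. The counts were 8 of 20 at d5, 11 of 21 at d6 and 7 of 26 in EpiSC, and the d7 share was 35.6%. In every group most of these cells had the left side less replicated. RefSeq gives Cmc1 and Golga4 as the neighbours of Eomes.

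**Figure D3:**
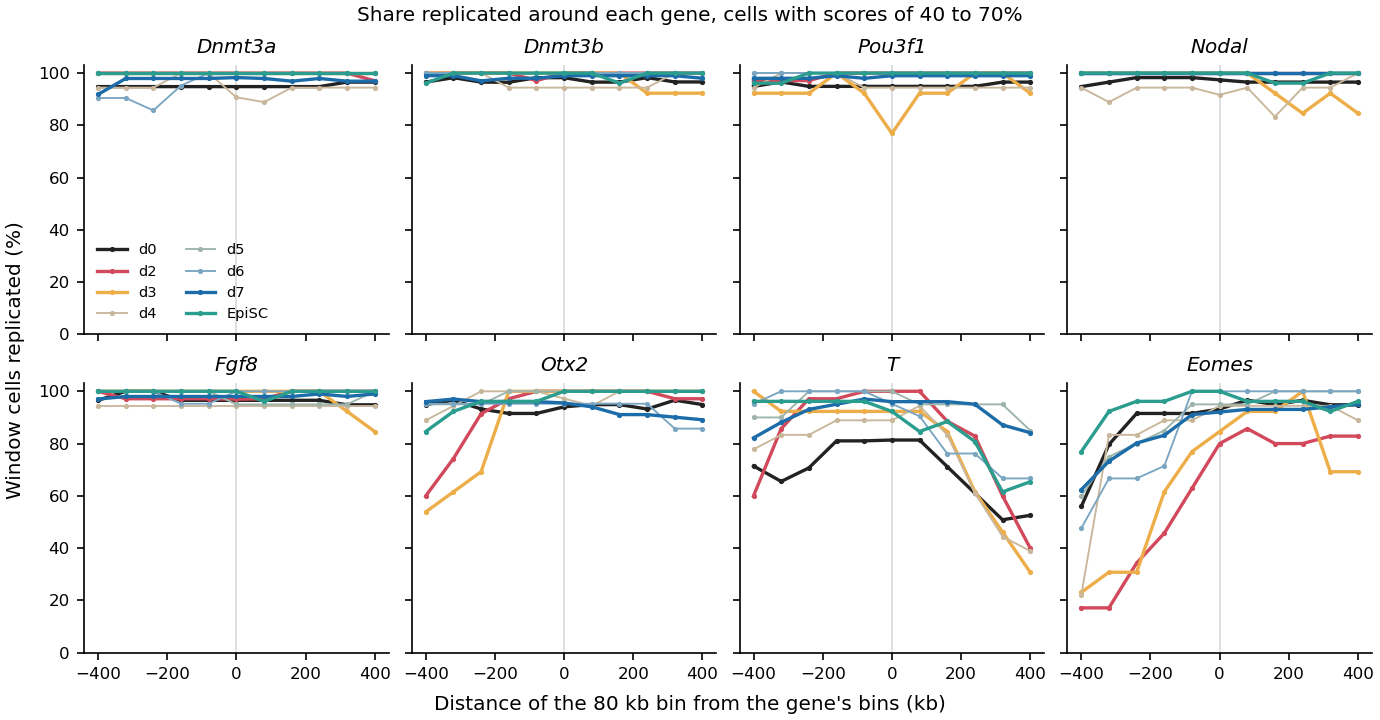
Share of window cells replicated (percent) in each 80 kb bin against its distance from the gene's bins (kb, negative to the left), with 1 line per group and the bins of a gene averaged at 0. Around Eomes the d2 and d3 lines fall to the left, to 6 of 35 cells at d2; around Dnmt3a, Dnmt3b, Nodal and Fgf8 all groups stay above 80%.

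**Figure D4:**
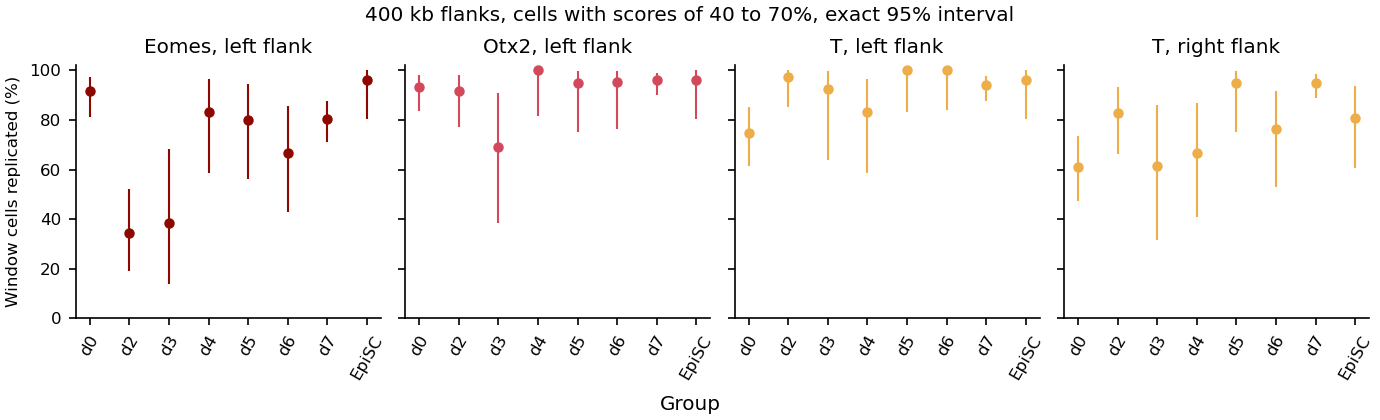
Share of window cells with a 400 kb flank replicated (percent, points) by group, with exact 95% intervals (bars). The left flank of Eomes stands at 91.5% at d0, 34.3% at d2, 38.5% at d3 and 96.2% in EpiSC, and the right flank of T at 61% at d0 and 95% at d7.

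The order of Otx2 and Eomes within cells was opposite at d0 and d2. At d0 Eomes was replicated without Otx2 in 21 cells and Otx2 without Eomes in 4 of 25 (16%, interval 4.5 to 36.1%). At d2 Otx2 was ahead in 20 of 25 cells (80%, 59.3 to 93.2%), at d3 in 11 of 11 (71.5 to 100%) and at d5 in 8 of 8 (63.1 to 100%). It was ahead in 3 of 6 d4 cells, 1 of 6 d6 cells, 12 of 27 d7 cells (44.4%) and 3 of 6 EpiSC. The intervals of d2, d3 and d5 do not overlap that of d0. At d0 the 25 cells were 23 of the previous series, with Otx2 ahead in 4, and 2 of the present series, with Otx2 ahead in 0. The count at d0 is made without the replication score, but it can depend on which stages of S phase were sampled. Leaving out off-profile cells moved none of these percentages out of its interval. With window cells alone, 10 of the orders examined within a group moved and 9 stayed the same.

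T and Eomes exchanged places in the same way. T was ahead of Eomes in 5 of 27 cells at d0 (18.5%, interval 6.3 to 38.1%), 21 of 26 d2 cells (80.8%, 60.6 to 93.4%), 6 of 9 d3 cells, 4 of 7 d4 cells, 5 of 5 d5 cells, 2 of 8 d6 cells, 12 of 21 d7 cells (57.1%) and 2 of 14 EpiSC (14.3%, 1.8 to 42.8%). The EpiSC interval overlaps that of d0 and not that of d2. Otx2 and T were even at d0, 13 cells each way, and nearly so at d2 with 6 and 7. Otx2 was ahead of T in 8 of 8 cells at d3 and 10 of 10 EpiSC (69.2 to 100%), but in 8 of 22 d7 cells and 3 of 6 d6 cells.

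**Figure D5:**
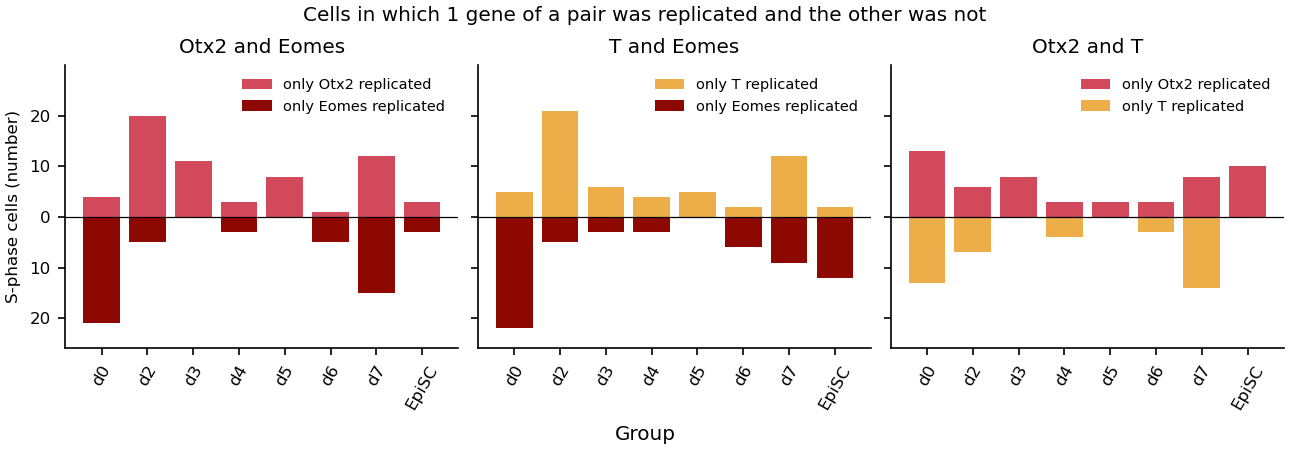
Numbers of S-phase cells by group in which 1 gene of a pair was replicated and the other was not, for Otx2 and Eomes, T and Eomes, and Otx2 and T; bars above the line count the gene named at the top of the legend, bars below it the other. For Otx2 and Eomes the longer bar is below the line at d0 (21 cells) and above it at d2 (20 cells).

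The size rule for a difference between groups in a bin was 30 percentage points or more. In window cells no gene bin passed it in any of 8 comparisons. From d0 to d2, 5 of the 92 bins were later, 4 around Eomes and 1 around Otx2, against 6.98% of all autosomal bins, and 0 were earlier against 1.54%. From d0 to d3, 5 were later (8.79% of all bins), 3 around Eomes and 2 around Otx2, and 0 earlier (5.06%). From d0 to d4, 1 bin around Eomes was later (7.02%) and 0 earlier (3.23%). Earlier bins appeared afterwards and lay around T: 3 for d5 (4.40%), 1 for d6 (6.11%), 3 for d7 (7.75%) and 1 for EpiSC (7.36%). In those 4 comparisons 0 of the 92 were later, against 6.15, 8.81, 7.71 and 6.34% of all bins. Between EpiSC and d7, 0 bins passed either way (4.90% earlier, 5.74% later). As shares of the 92 bins, the counts are all below those of the autosomes. At d0 the genes were already replicated in 81.4 to 98.2% of window cells, so no gene could rise by 30 points. Of the 92 bins 74 were at 80% or more in every group, against 25.8% of all bins. The counts of earlier bins were therefore limited by this ceiling and say little about change at these loci. The ceiling leaves room for a fall, and why the counts of later bins were low was not tested.

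In cells with scores of 20 to 40% the picture differed. From d0 to d2, 15 of the 92 bins (16.3%) were earlier (8 around T, 5 around Otx2, 2 around Dnmt3b) against 5.30% of all autosomal bins, and 0 were later against 3.72%. Both Otx2 bins and the T bin were among them. From d0 to d7, 16 (17.4%) were earlier (7 around T and 3 each around Otx2, Pou3f1 and Eomes; 9.60% of all bins) and 1, around Dnmt3a, was later (4.19%). From d0 to EpiSC, 24 (26.1%) were earlier (all 12 of the Otx2 stretch, 5 around T, 5 around Eomes, 2 around Dnmt3b; 10.7%) and 0 later (4.64%). The groups were not at the same stage within this class: mean scores were 28.3% at d0, 29.6% at d2, 32.3% at d7 and 32.1% in EpiSC. The score is itself the share of called bins replicated, so groups with higher mean scores have higher mean shares over all autosomal bins. How far this difference in stage entered the counts of earlier bins was not tested. With cells matched in score the earlier bins were 12 from d0 to d2 and 12 from d0 to d7, and the later bins 4 and 1. The shares of all autosomal bins with matched cells are not given. Whether the excess of earlier bins over the autosomes holds with matched scores thus cannot be told. These comparisons share the d0 cells, and bins of 1 stretch are copied together and are not independent.

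Likeness between loci was measured as the root mean square difference of their window shares over the 8 groups. Dnmt3a and Nodal were the closest pair, at 0.71 points, and Eomes was farthest from 6 of the other 7 genes, at 8.45 to 9.79 points. Within 5 points of Otx2 lay 18.8% of autosomal bins, of Pou3f1 3.16%, of T 0.71% and of Eomes 0.61%. Few bins thus passed this limit for T or for Eomes. At d3, however, with 13 window cells, 1 cell moves a share by more than 5 points. Counting error is larger for shares away from 100%, so bins with the same underlying shares may fail the limit. The low percentages for Pou3f1, T and Eomes therefore cannot show that window shares like theirs are rare. Window shares were near 100% for most of the genes, so this measure does not hold the differences of Otx2 in earlier S phase.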

How the data were processed

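Per the labels' protocols, DNA of sorted single cells was amplified with a SeqPlex kit and read in single reads of 80 bp. The submitters' processing notes name cutadapt, BWA 0.7.10-r789, Picard and the mm9 build, while how these were ordered and set is not given in the sources used here. The deposited calls are a score per cell and 80 kb autosomal bin, with 1 meaning replicated, -1 unreplicated and 0 no data, after correction with merged G1 controls, per the file headers. Also deposited is each cell's replication score, a fraction of its called autosomal bins; recomputed as a percentage it differed by at most 5.00e-08 points. Smoothing and thresholds were set before deposit, so a slope over neighbouring bins partly carries them. The number of bins called stands in for read depth.

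Groups were taken from the titles; 7 G1 cells whose title named another day than their other labels were left out. A gene's bins are those within 5 kb of its stated position, and a gene or flank counted as replicated in a cell when over 50% of its bins with a call were, which for the 2 Otx2 bins means both. Shares are over cells with a call, and bins were compared where at least 50% of a group's cells had one. Midpoints came from fitting a logistic curve of calls against scores with 1% of calls taken as wrong, on a grid of 0.5 points; for the earlier 5 genes most fall at the low edge of the scores, and none is given. Cells were matched to the nearest unused score. Of these steps only the midpoint fit and the size rule were tested on simulated data. The fit was tested with the scores of d7 cells, not for smaller groups or for midpoints as low as 7.0%. The size rule was tested at the cell numbers of d0 and d7. Python 3.11.15, numpy 2.4.6, pandas 2.3.3, scipy 1.17.1 and matplotlib 3.10.9 were used.

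All 8 genes are named by rule. The members, lists and rules were chosen with earlier results of these data known. The 400 kb flanks taken on their own, the cells with scores of 20 to 40%, and some alternatives were added after seeing the data. Other genes of the epiblast and streak pathways were not analysed here: the RefSeq table used is of GRCm38.p6, the calls of mm9, and it served only to name neighbours. Chromosome X tables were not used here.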

Additional observations from a re-analysis of the deposited data

How the results depend on the processing

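The counts of the 92 bins passing the size rule moved with its settings. The shares of all autosomal bins passing it are not given for these other settings. The counts below therefore show how the rule behaves and cannot be read as results about these loci. From d0 to d2 the 0 earlier bins became 3 at a difference of 0.2, 4 with scores of 45 to 65% and 32 with present-series cells, and the 5 later bins became 3 at a difference of 0.4. From d0 to d7 the 3 earlier bins became 6 at 0.2, 0 at 0.4, 6 with scores of 45 to 65% and 28 with present-series cells. From d0 to EpiSC the 1 earlier bin became 4 at 0.2, 0 at 0.4, 4 with scores of 45 to 65%, 0 without off-profile cells, 0 without cells the authors had marked, 0 with previous-series d0 cells and 32 with present-series cells. From EpiSC to d7 the 0 earlier bins became 1 at 0.2 and 1 with cells matched in score. The present-series values rest on 9 d0 cells, 3 of them off-profile. In cells with scores of 20 to 40% the earlier bins became 7 at 0.4 and 8 with scores of 25 to 35% from d0 to d2 (15 before), and 6 and 10 from d0 to d7 (16 before). The later bins became, from d0 to d2 (0 before), 7 at 0.2, 4 with matched scores and 5 with scores of 25 to 35%. From d0 to d7 (1 before) they became 2 at 0.2, 0 at 0.4 and 8 with scores of 25 to 35%, and from d0 to EpiSC (0 before) 1 at 0.2 and 6 with scores of 25 to 35%. The cause of these moves was not tested, beyond the fewer cells or other threshold that each setting brings. With window cells alone 3 of the 28 orders within cells turned, 15 others moved and 10 stayed the same. In those that turned, Dnmt3a ahead of Nodal was 33.3% in place of 64.4% and Pou3f1 ahead of Nodal 20% in place of 71.1%. Nodal ahead of Fgf8 was 80% in place of 28%. Few window cells differ at these genes. Of the 64 fitted midpoints 17 moved by 5 points or more with all S-phase cells, 8 with no calls taken as wrong and 7 without off-profile cells. Among those of Otx2, T and Eomes these were T at d4 (17.5% in place of 12.5%) and Eomes at d4 (18% in place of 11.5%) with all S-phase cells, and T at d5 (14% in place of 20%) without off-profile cells. Taken over the gene with 400 kb on either side, 31 of the 64 moved. No paired analysis was possible because the numbers in the titles only name cells. Depth limits d3 to d6 and EpiSC most: at scores of 20 to 40% they hold 7 to 12 cells each, and many of their intervals span more than 50 points.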
